A study of Mus musculus with 12 samples.

Results

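Rab proteins are the largest branch of the Ras-like small GTPases. A Rab is switched on by a guanine nucleotide exchange factor (GEF), which loads GTP, and off by a GTPase-activating protein (GAP). In its active form it sits on a membrane through prenyl anchors and recruits effectors that move, tether or fuse vesicles, while GDP dissociation inhibitors hold the inactive form in the cytosol. Each compartment of the cell carries its own Rabs, so that Rab1 and Rab6 serve the endoplasmic reticulum (ER) and Golgi, Rab5 early endosomes, Rab4 and Rab11 recycling, Rab7 and Rab9 late endosomes, and Rab3, Rab8 and Rab27 secretion. Sertoli cells, the somatic cells of the tubule that nurse the germ cells, use these routes to secrete fluid and proteins, to internalise and recycle the junctions of the blood-testis barrier, and to engulf the residual bodies that germ cells shed.

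The Rab genes described here are all genes whose symbol is Rab, a number and at most a further letter and digit, without pseudogenes. The rule used names and no measured value. It found 59 genes, the same in both count tables, of 49585 genes in the table of sorted cells and 21823 in that of cultured cells. They lie on 18 chromosomes, and 7 of them are on chromosome 17. Rab genes held 0.348% ± 0.0153 of all reads in cKO and 0.345% ± 0.0105 in control libraries, and 0.525% ± 0.0116 in immunoprecipitates and 0.469% ± 0.00969 in inputs (mean ± SD, n = 3 libraries per group).

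The study sequenced RNA from 12 mouse samples, 3 in each of 4 groups, all from Sertoli cells of the testis. The conditional knockout (cKO) group held Sertoli cells sorted from AmhCre; Ptbp1 flox/flox; mTmG;wt mice, and its control group Sertoli cells sorted from AmhCre; Ptbp1 flox/wt; mTmG;wt mice. Both groups thus carried Cre driven by the Amh promoter and the mTmG reporter. The control carried a floxed and a wild-type Ptbp1 allele, and whether Cre had recombined the floxed allele there was not tested. Ptbp1 encodes PTBP1 (polypyrimidine tract binding protein), a splicing regulator that binds pyrimidine-rich RNA. The other groups were PTBP1 immunoprecipitates (IP) and input total RNA of wild-type Sertoli cells in primary culture. Neither the age of the animals nor an immunoprecipitate made with a control antibody is in the labels, so a transcript higher in the IP than in the input is not thereby shown to be bound by PTBP1. Whether libraries of a group are separate animals or cultures is not stated there, and the p-values cover the spread between libraries, which may be technical. The cultured libraries carry a pair of numbers each (1 and 1, 1 and 2, 2 and 1), and if the first marks a culture, 3 libraries hold 2 cultures.

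Total counts ran from 11980474 to 13750181 in cKO, from 12813037 to 13503686 in control, from 26725003 to 28796396 in IP and from 12894035 to 15315115 in input libraries. Ptbp1 averaged 7.78 ± 0.184 CPM in cKO and 247 ± 5.29 CPM in control cells (CPM being counts scaled to the TMM-adjusted library size, n = 3). The third library of the cKO and of the control group, in table order, stood apart from the others of its group, with a chi-square per degree of freedom of 17.7 to 24.0 against 7.70 and 5.49 between the remaining pairs. Of the Sertoli cell markers Sox9, Wt1, Amh, Gata4, Cldn11 and Vim, 5 of 6 were lower in cKO cells and Wt1 did not pass the test. Their summed level was 3110 to 3387 CPM in cKO and 4337 to 4628 CPM in control libraries. In the cultured cells it was 5941 to 6143 CPM in IP and 5876 to 5960 CPM in input libraries, with 4 markers higher and Wt1 and Vim lower in the IP. Germ cell markers summed to 366 to 412 CPM in cKO and 203 to 317 CPM in control libraries, with 4 of 6 tested markers higher in cKO and Prm1 at 0 in all libraries. Leydig markers summed to 37.5 to 47.6 CPM in cKO and 25.9 to 30.0 CPM in control libraries (1 of 3 tested higher), and peritubular myoid markers to 41.5 to 72.9 CPM in cKO and 58.8 to 63.4 CPM in control libraries (1 of 3 higher). Red blood cell markers summed to 20.8 to 50.03 CPM in cKO and 32.3 to 61.5 CPM in control libraries (Alas2 lower, the other 3 not past the test), and no macrophage or endothelial marker passed the test. Some of these markers were highest in the third cKO library. Hbb-bs had 0.841, 2.27 and 23.8 CPM in cKO, against 1.35, 1.49 and 4.07 CPM in the controls. Cdh5 had 0.700, 1.17 and 4.85 CPM in cKO, against 1.19, 1.16 and 1.06 CPM in the controls. Tagln had 1.96, 1.96 and 5.19 CPM in cKO, against 0.318, 1.08 and 1.38 CPM in the controls. Alas2 was lowest there, at 20.8, 16.4 and 8.19 CPM in cKO. The part of these cell types in the differences of Rab genes below was not tested, and in bulk RNA a change in the share of a cell type and a change of RNA per cell cannot be told apart. In the cultured libraries the myoid markers Acta2, Myh11 and Tagln summed to 883 to 1016 CPM in IP and 2028 to 2065 CPM in input, all 3 lower, and Amh averaged 23.4 CPM in IP and 17.05 CPM in input. Leydig markers summed to 121 to 131 CPM in IP and 209.9 to 218 CPM in input (1 of 3 tested higher, 2 lower), and endothelial markers to 32.6 to 36.1 CPM in IP and 63.1 to 77.7 CPM in input (1 of 2 lower). Germ cell markers summed to 33.4 to 36.6 CPM in IP and 20.6 to 21.8 CPM in input (1 of 4 tested higher, 2 lower), with Prm1 and Acrv1 at 0. Macrophage markers summed to 4.76 to 5.78 CPM in IP and 3.198 to 3.34 CPM in input (2 of 2 tested higher), and red blood cell markers to 1.99 to 2.40 CPM in IP and 1.06 to 1.29 CPM in input (Alas2 higher). Their part in the Rab differences of the IP was not tested.

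Sorted Sertoli cells expressed most of the family. Of the 59 genes, 47 were high enough to be tested, and 3 (Rab25, Rab3c and Rab44) had no read in any sorted library. The other 9 (Rab15, Rab17, Rab26, Rab33a, Rab37, Rab38, Rab39, Rab39b and Rab40b) averaged at most 0.746 CPM in either group. Per kilobase of exon, Rab31, which works between the trans-Golgi network and endosomes, stood highest, with 148 ± 4.28 CPM per kb in cKO and 206 ± 9.97 CPM per kb in control cells (n = 3). The early endosome gene Rab5c followed, with 87.4 ± 10.9 CPM per kb in cKO and 107 ± 11.5 CPM per kb in control cells. Rab1b, a Rab of transport from the ER to the Golgi, had 44.2 ± 3.42 CPM per kb in cKO and 83.9 ± 5.21 CPM per kb in control cells, which placed it at rank 9 in cKO cells and rank 3 in control cells. Rab18, found on lipid droplets and the ER, had 69.1 ± 3.19 CPM per kb in cKO and 53 ± 2.73 CPM per kb in control cells, at rank 3 in cKO cells and rank 6 in control cells. The ranges of Rab31 and Rab5c in control cells overlapped neither each other nor that of Rab1b, while from Rab1b downwards most neighbours overlapped. The 5 genes highest in control cells held 34.9% of the summed Rab level per kb in cKO and 41.8% in control cells, and the 20 highest held 82.6% in cKO and 83.0% in control cells. The sum over all members was 1155 ± 56.1 CPM per kb in cKO and 1290 ± 37.6 CPM per kb in control cells. These sums rest on the TMM scaling, and scaling by library size alone put the median log2 fold of all genes at 0.17. As a share of all reads, Rab genes held 0.348% in cKO and 0.345% in control libraries, so no fall of the total Rab level is read from the sums.

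**Figure D1:**
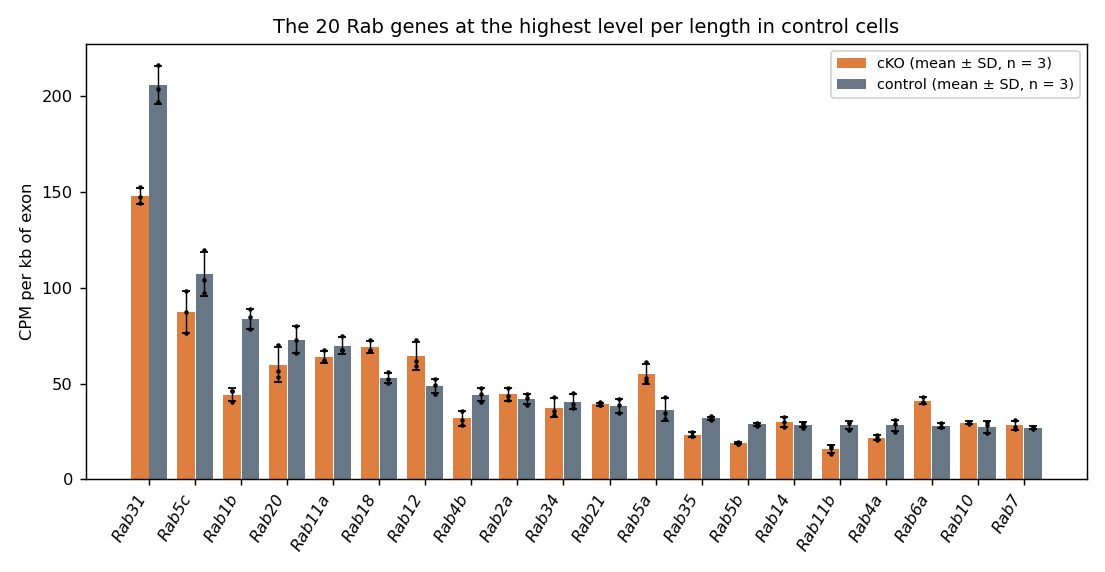
Mean level per kilobase of exon (CPM per kb, bars start at 0) of the 20 Rab genes highest in control cells, with cKO left of control for each gene. Bars are means, whiskers SD and points the 3 libraries of a group; Rab31 stood highest in both groups, and Rab1b averaged 44.2 in cKO and 83.9 in control cells.

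The comparison of cKO with control cells asked which Rab transcripts differ between them. Both groups carried Amh-driven Cre, with both Ptbp1 alleles floxed in cKO cells and a single one in control cells. Of 47 tested Rab genes, 9 were higher and 13 lower in cKO cells and 25 did not pass the test (quasi-likelihood test of edgeR, threshold of 0.05 on the p adjusted by Benjamini-Hochberg over all 13405 genes tested). That is 19.1% higher and 27.7% lower, where 17.6% of all tested genes were higher and 21.4% lower, so the family as a whole was called at a rate near that of the background (46.8% against 39.0%). The groups did not overlap for 26 of 47 Rab genes (55.3%), against 49.7% of all genes. The median log2 fold was -0.11 over the tested Rab genes and 0.0021 over all tested genes. With scaling by library size alone, which moved the median of all genes by 0.17, the split was 13 higher and 11 lower. By compartment, 4 were higher and 2 lower of 12 tested at the ER and Golgi, 1 higher and 4 lower of 9 in secretion, 0 higher and 4 lower of 6 in recycling, and 1 higher and 2 lower of 7 at the early endosome. These counts per compartment are small and carry no test. Most changes were under 2-fold. Past the threshold, Rab27b (log2 fold 2.08) was higher and Rab43 (-1.09) lower by 2-fold or more, where 4.10% and 2.31% of all genes were, and the other called genes lay between -0.96 and 0.67.

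**Figure D2:**
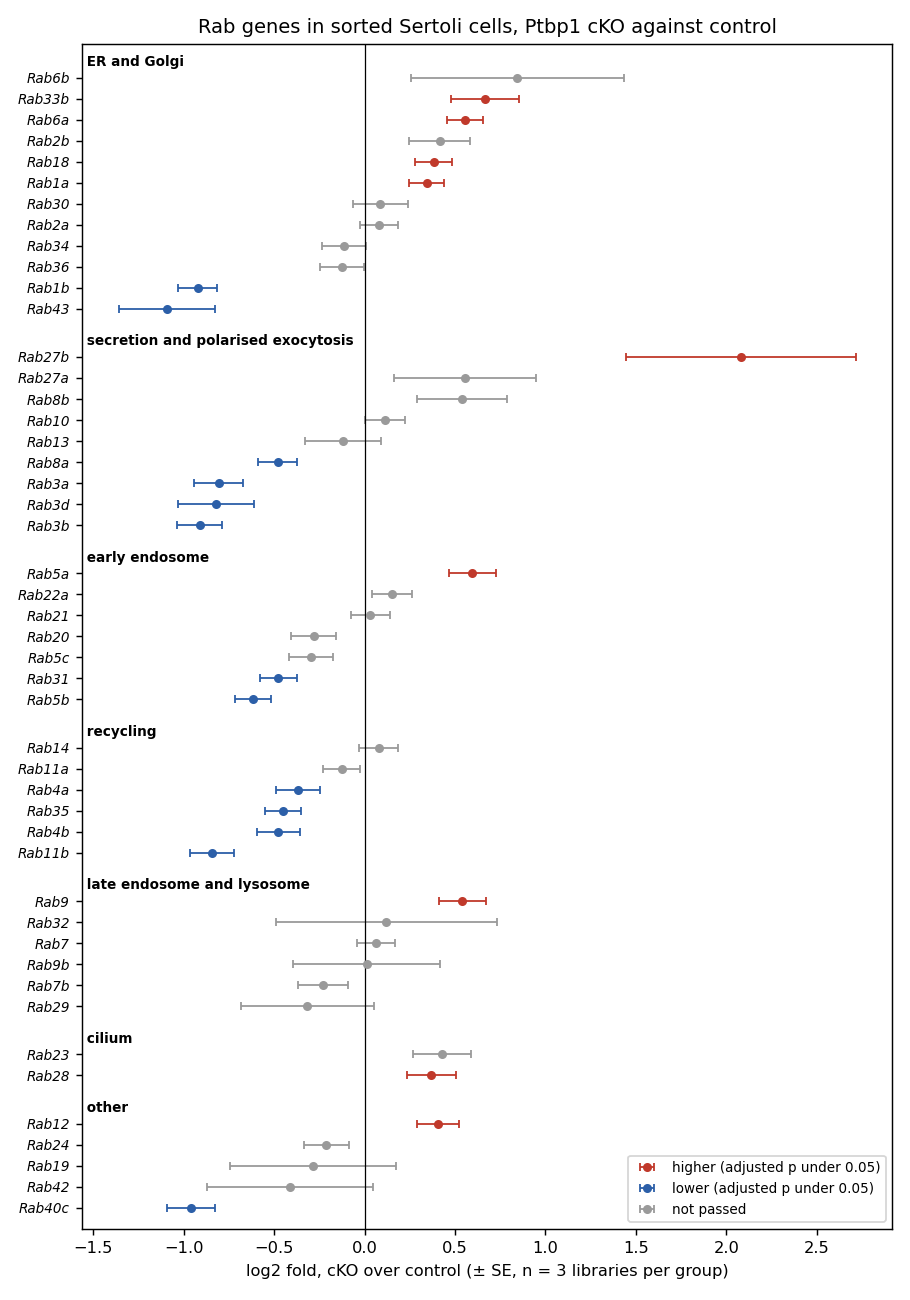
Log2 fold of cKO over control (horizontal axis) for the 47 tested Rab genes, grouped down the page by compartment. Points are edgeR estimates, whiskers SE, n = 3 libraries per group; red marks the 9 genes higher, blue the 13 lower and grey the 25 that did not pass.

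At the ER and Golgi, Rab1a and Rab1b moved apart. These paralogs both serve transport from the ER to the Golgi and lie on different chromosomes (chr11:20201432-20226856 and chr19:5099207-5106996, mm10). Rab1a had 118, 117 and 115 CPM in the cKO libraries, against 94.6, 93.8 and 86.9 CPM in the controls. All cKO libraries lay above all controls, and the log2 fold was 0.34 ± 0.098 (SE; adjusted p = 0.0152). This call was lost without the first cKO library (adjusted p = 0.054) or the second control library (0.0562). Rab1b had 84.7, 73.9 and 84.9 CPM in the cKO libraries, against 163, 155 and 144 CPM in the controls. Here every cKO library lay below every control, with a log2 fold of -0.92 ± 0.11 (SE; adjusted p = 0.000133). The ratio of Rab1a to Rab1b reads was 1.39, 1.58 and 1.35 in the cKO libraries, against 0.581, 0.604 and 0.604 in the controls. Reads are not scaled to gene length, so a ratio of 1 does not mark equal levels. Per kilobase of exon, Rab1a averaged 30.7 CPM in cKO and 24.2 CPM in control cells, below Rab1b in both groups (44.2 and 83.9 CPM).

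Other Rabs of the ER and Golgi that rose were Rab6a, Rab18 and Rab33b. Rab6a, which drives retrograde transport from and within the Golgi, had 161, 151 and 149 CPM in the cKO libraries, against 101, 109.9 and 103 CPM in the controls. The groups were well apart, with a log2 fold of 0.55 ± 0.099 (SE; adjusted p = 0.00123). Mrpl48 overlaps Rab6a in the genome, and whether strand was used in counting is not given in the sources used here. Mrpl48 had 470, 375 and 578 reads in cKO and 536, 654 and 599 reads in control libraries, where Rab6a had 2293, 1922 and 2181 in cKO and 1271, 1323 and 1260 in control libraries. Rab18 had 164, 153 and 151 CPM in the cKO libraries, against 119, 126 and 114 CPM in the controls. No library of one group reached the other, and the log2 fold was 0.38 ± 0.10 (SE; adjusted p = 0.0104). Rab33b, a Golgi Rab that binds the autophagy protein Atg16l1, had 22.9, 21.8 and 14.7 CPM in the cKO libraries, against 13, 12.9 and 11.6 CPM in the controls. The third cKO library was lowest of its group but still above the controls, and the log2 fold was 0.67 ± 0.19 (SE; adjusted p = 0.0144). Its call was lost without the first cKO library (adjusted p = 0.0683) or the second (0.0641).

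Rab43, another Golgi Rab, fell: it averaged 3.83 ± 0.953 CPM in cKO and 8.17 ± 1.41 CPM in control libraries (n = 3), a log2 fold of -1.09 ± 0.27 (SE; adjusted p = 0.00697). Rab43 overlaps Gm45140, which had 26, 32 and 10 reads in cKO and 18, 6 and 20 reads in control libraries. The reads of Rab43 were 41, 49 and 70 in cKO and 92, 118 and 91 in control libraries. Among the ER and Golgi genes that did not pass the test, Rab2a and Rab30 had log2 folds of 0.080 and 0.087, and Rab34 and Rab36 of -0.11 and -0.13. Rab2b had 21.2, 18.4 and 18.6 CPM in the cKO libraries, against 12, 14.8 and 16.9 CPM in the controls (log2 fold 0.41 ± 0.17 SE, adjusted p = 0.0684). Its groups did not overlap, and it passed the test without the third control library (adjusted p = 0.0328). Rab2b overlaps Tox4, which had 2249, 1872 and 2052 reads in cKO and 2471, 2466 and 2540 reads in control libraries. Rab6b was scarce, at 1.8 ± 1.26 CPM in cKO and 0.998 ± 0.476 CPM in control libraries, and its log2 fold of 0.84 was -0.18 without the third library of both groups.

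In the early endosome group the Rab5 paralogs also moved apart. Rab5 controls the uptake and fusion of early endosomes. Rab5a (chr17:53479234-53507671) had 125, 121 and 144 CPM in the cKO libraries, against 81.4, 102 and 74.7 CPM in the controls. Each cKO library was above each control, with a log2 fold of 0.60 ± 0.13 (SE; adjusted p = 0.00401). Rab5b (chr10:128677193-128696268) had 57.9, 59 and 61.6 CPM in the cKO libraries, against 91.3, 88.9 and 93.8 CPM in the controls. Here the cKO libraries all lay below the controls, with a log2 fold of -0.62 ± 0.099 (SE; adjusted p = 0.000641). Rab5c, the highest of the Rab5 genes per length, had 191, 168 and 216 CPM in the cKO libraries, against 229, 263 and 214 CPM in the controls. The groups overlapped, and the log2 fold of -0.30 ± 0.12 (SE; adjusted p = 0.0786) did not pass. It passed as lower without the third cKO library (adjusted p = 0.015) or the third control library (0.0463). The ratio of Rab5a to Rab5b reads was 2.15, 2.05 and 2.34 in the cKO libraries, against 0.891, 1.14 and 0.797 in the controls.

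Rab31 fell as well. It had 530.2, 512 and 501 CPM in the cKO libraries, against 684, 709 and 753 CPM in the controls. The groups were well apart, with a log2 fold of -0.48 ± 0.10 (SE; adjusted p = 0.00312). Rab20, an endosomal and phagosomal Rab, had 78.5, 74.3 and 97.5 CPM in the cKO libraries, against 101, 111 and 92 CPM in the controls, and the third cKO library lay within the range of the controls (log2 fold -0.28 ± 0.13 SE, adjusted p = 0.10). Without that library Rab20 passed as lower (adjusted p = 0.010). Rab21, which traffics integrins, and Rab22a, of the endosome and the trans-Golgi network, had log2 folds of 0.031 and 0.15 and did not pass. With scaling by library size alone Rab22a passed as higher (log2 fold 0.32, adjusted p = 0.0312).

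The promoters of the 4 paralogs that moved apart are shown so that the members of each pair can be compared. They are the 250 bases before the start of the RefSeq transcript (build GRCm38.p6, the assembly that mm10 names), written 5′ to 3′ on the strand of the gene. Capitals mark matches on either strand to CACGTG (the E-box), GGGCGG (the GC box), CCAAT and TATAAA.
Rab1a promoter, chr11:20201162-20201411, plus strand: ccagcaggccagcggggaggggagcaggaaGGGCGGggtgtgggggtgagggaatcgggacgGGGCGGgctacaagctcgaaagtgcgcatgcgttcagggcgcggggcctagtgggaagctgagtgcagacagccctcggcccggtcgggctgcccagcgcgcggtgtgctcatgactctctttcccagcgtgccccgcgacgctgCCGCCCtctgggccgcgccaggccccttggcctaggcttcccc
Rab1b promoter, chr19:5106997-5107246, minus strand: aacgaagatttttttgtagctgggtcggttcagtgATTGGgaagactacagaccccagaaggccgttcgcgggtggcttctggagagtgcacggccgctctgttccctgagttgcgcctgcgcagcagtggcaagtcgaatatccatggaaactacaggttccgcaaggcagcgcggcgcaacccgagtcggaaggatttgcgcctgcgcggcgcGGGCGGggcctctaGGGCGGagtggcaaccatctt
Rab5a promoter, chr17:53478984-53479233, plus strand: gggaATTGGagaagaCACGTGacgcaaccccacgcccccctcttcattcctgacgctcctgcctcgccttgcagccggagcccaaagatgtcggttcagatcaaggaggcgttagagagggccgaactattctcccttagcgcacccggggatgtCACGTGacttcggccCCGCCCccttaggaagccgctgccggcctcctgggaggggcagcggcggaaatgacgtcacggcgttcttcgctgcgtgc
Rab5b promoter, chr10:128696269-128696518, minus strand: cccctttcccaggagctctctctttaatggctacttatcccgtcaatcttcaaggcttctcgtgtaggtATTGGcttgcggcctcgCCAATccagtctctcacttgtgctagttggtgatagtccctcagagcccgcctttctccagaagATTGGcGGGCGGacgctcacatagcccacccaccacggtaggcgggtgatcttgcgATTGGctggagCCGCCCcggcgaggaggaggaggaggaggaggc

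In these windows Rab1a had 3 matches to GGGCGG, while Rab1b had 2 to GGGCGG and 1 to CCAAT. Rab5a had 2 matches to CACGTG, 1 to GGGCGG and 1 to CCAAT, and Rab5b had 4 to CCAAT and 2 to GGGCGG and none to CACGTG. Over the 60 RefSeq promoters that matched 48 of the 59 Rab genes, 66.7% held GGGCGG, 40.0% CCAAT, 8.33% CACGTG and 6.67% TATAAA. Of all 32851 promoters of the same length, 32.7% held GGGCGG, 33.8% CCAAT, 6.02% CACGTG and 12.4% TATAAA. The GC content had a median of 60.2% in the Rab promoters and 52.4% in all. GGGCGG stood in 5 of 7 promoters of Rab genes higher in cKO and in 12 of 16 promoters of those lower in cKO, and CACGTG in 1 of 7 and 0 of 16. These matches are a description of the letters in the windows.

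The Rab3 genes of regulated secretion fell together. Rab3 proteins sit on secretory vesicles and act in regulated exocytosis, and the 3 Rab3 genes tested were all lower in cKO cells. These falls kept their call under each of the 12 alternative settings tried. Rab3a had 25.2, 22.6 and 27.6 CPM in the cKO libraries, against 39, 44.3 and 48.9 CPM in the controls. Its cKO libraries all lay below the controls, with a log2 fold of -0.81 ± 0.13 (SE; adjusted p = 0.000839). The gene overlaps Mpv17l2, which had 278, 231 and 354 reads in cKO and 427, 488 and 483 reads in control libraries. Rab3b had 31.6, 36 and 36.1 CPM in the cKO libraries, against 56.9, 72.1 and 66 CPM in the controls. No cKO library reached the lowest control, and the log2 fold was -0.91 ± 0.12 (SE; adjusted p = 0.000277). Rab3d, the lowest of these per length, had 7.14, 7.21 and 11 CPM in the cKO libraries, against 13, 15.5 and 16.4 CPM in the controls. The third cKO library was highest of its group and below every control, and the log2 fold was -0.82 ± 0.21 (SE; adjusted p = 0.00935).

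Rab8a, a Rab of polarised exocytosis and of cilium formation, fell while its paralog Rab8b did not. Rab8a had 44.2, 40.02 and 42.8 CPM in the cKO libraries, against 59.2, 55.3 and 62.8 CPM in the controls. All cKO libraries were the lower, and the log2 fold was -0.48 ± 0.11 (SE; adjusted p = 0.00487). Rab8b had 6.65, 8.69 and 7.51 CPM in the cKO libraries, against 4.13, 5.07 and 6.51 CPM in the controls (log2 fold 0.54 ± 0.25 SE, adjusted p = 0.106). Its cKO libraries lay just above the controls without passing the test. It passed as higher without the third library of both groups (adjusted p = 0.0329) and with scaling by library size alone. The ratio of Rab8a to Rab8b reads was 6.64, 4.6 and 5.7 in the cKO libraries, against 14.3, 10.9 and 9.64 in the controls. Rab10, which brings vesicles to the plasma membrane, and Rab13, a Rab of tight junctions, had log2 folds of 0.11 ± 0.11 (SE; adjusted p = 0.445) and -0.12 ± 0.21 (SE; adjusted p = 0.684).

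Rab27b, which docks secretory granules and exosome-forming endosomes, rose at a level of few reads. It had 0.911, 1.72 and 3.96 CPM in the cKO libraries, against 0.557, 0.249 and 0.733 CPM in the controls. The third cKO library was far above the others of its group, and the log2 fold was 2.08 ± 0.63 (SE; adjusted p = 0.0217). Without that library the adjusted p was 0.126, without the first control library 0.0625, without the second 0.0908, and with the third library of each group left out 0.0664. Its paralog Rab27a averaged 5.68 ± 2.71 CPM in cKO and 3.86 ± 1.69 CPM in control libraries and did not pass (log2 fold 0.56 ± 0.39 SE, adjusted p = 0.292).

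Recycling Rabs gave 4 falls and no rise among 6 tested. Rab11b, of the slow route through the recycling endosome, had 101, 82.2 and 106 CPM in the cKO libraries, against 179, 182 and 158 CPM in the controls. Every cKO library lay far below every control, with a log2 fold of -0.84 ± 0.12 (SE; adjusted p = 0.000349). Its paralog Rab11a had 202, 187 and 185 CPM in the cKO libraries, against 202, 201 and 224 CPM in the controls. These groups overlapped, and the log2 fold of -0.13 ± 0.10 (SE; adjusted p = 0.353) did not pass. The ratio of Rab11a to Rab11b reads was 2.0, 2.28 and 1.75 in the cKO libraries, against 1.13, 1.11 and 1.41 in the controls. Rab35, which returns cargo from endosomes to the plasma membrane, had 69.5, 63.6 and 64.1 CPM in the cKO libraries, against 88.1, 92.6 and 89 CPM in the controls. The 3 controls lay above them without overlap, with a log2 fold of -0.45 ± 0.10 (SE; adjusted p = 0.00418). Rab14, which works between endosomes and the Golgi, had a log2 fold of 0.077 ± 0.11 (SE; adjusted p = 0.60) and did not pass.

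Both Rab4 genes, which act in fast recycling from early endosomes, fell, with calls that depended on single libraries. Rab4a had 36, 38.1 and 41 CPM in the cKO libraries, against 43.7, 54.1 and 50.8 CPM in the controls. Only a small gap parted the groups, with a log2 fold of -0.37 ± 0.12 (SE; adjusted p = 0.0312). The adjusted p was 0.105 without the first cKO library, 0.0873 without the second, 0.159 without the second control library and 0.0582 without the third, and 0.233 with scaling by library size alone. The annotated gene Gm20388 spans Rab4a and had 18, 5 and 91 reads in cKO and 0, 38 and 25 reads in control libraries. Rab4a itself had 514, 486 and 600 reads in cKO and 550, 652 and 624 reads in control libraries. Rab4b averaged 62.6 ± 7.62 CPM in cKO and 87.2 ± 7.09 CPM in control libraries (n = 3; log2 fold -0.48 ± 0.12 SE, adjusted p = 0.00828). It lost its call without the first control library (adjusted p = 0.0587) and with scaling by library size alone (0.0611).

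Of 6 late endosome and lysosome genes tested, Rab9 rose and none fell. Rab9, which returns receptors from late endosomes to the trans-Golgi network, had 39.4, 33.4 and 41 CPM in the cKO libraries, against 27.7, 25.2 and 25.4 CPM in the controls. All cKO libraries were above all controls, with a log2 fold of 0.54 ± 0.13 (SE; adjusted p = 0.00625). Rab7, the Rab of late endosomes and of their fusion with lysosomes, had 68.7, 70.9 and 80.8 CPM in the cKO libraries, against 68.3, 70.9 and 71.8 CPM in the controls. The groups overlapped, and the log2 fold was 0.063 ± 0.11 (SE; adjusted p = 0.673). Rab7b, Rab29, Rab32 and Rab9b had log2 folds of -0.23, -0.32, 0.12 and 0.011 and did not pass, the last 3 at a mean of at most 3.22 CPM.

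Among the remaining genes Rab12 and Rab28 rose and Rab40c fell. Rab12, which directs receptors from recycling endosomes towards degradation and is a substrate of the kinase LRRK2, had 186, 179 and 220.4 CPM in the cKO libraries, against 149, 158 and 135 CPM in the controls. The lowest cKO library lay above the highest control, with a log2 fold of 0.41 ± 0.12 (SE; adjusted p = 0.0155). Its call was lost without the first control library (adjusted p = 0.0553) or the third (0.0572). Rab28, which is needed at the photoreceptor cilium, had 35.1, 29.9 and 36 CPM in the cKO libraries, against 25.5, 28.7 and 24 CPM in the controls, a log2 fold of 0.37 ± 0.13 (SE; adjusted p = 0.0462). Its groups lay close to each other without overlapping. This call sat near the threshold: the adjusted p was 0.136 and 0.0953 without the first or the third cKO library, 0.119, 0.0552 and 0.12 without the first, the second or the third control library, 0.133 without the third library of both groups and 0.0641 with no filter on low counts. Rab40c, whose protein carries a SOCS box and joins a ubiquitin ligase, had 33.8, 31.3 and 29.7 CPM in the cKO libraries, against 71.9, 57.9 and 54.1 CPM in the controls. The cKO libraries lay at similar levels well below the controls, with a log2 fold of -0.96 ± 0.13 (SE; adjusted p = 0.000294). Rab23, a regulator of hedgehog signalling, had 17.2, 16.2 and 18 CPM in the cKO libraries, against 11, 14.1 and 13.2 CPM in the controls and did not pass (log2 fold 0.43 ± 0.16 SE, adjusted p = 0.0541). It passed as higher with DESeq2's size factors (adjusted p = 0.0433), with library size alone (0.0132) and without mitochondrially encoded genes (0.0315). Rab19, Rab24 and Rab42 had log2 folds of -0.29, -0.21 and -0.41 and did not pass.

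**Figure D3:**
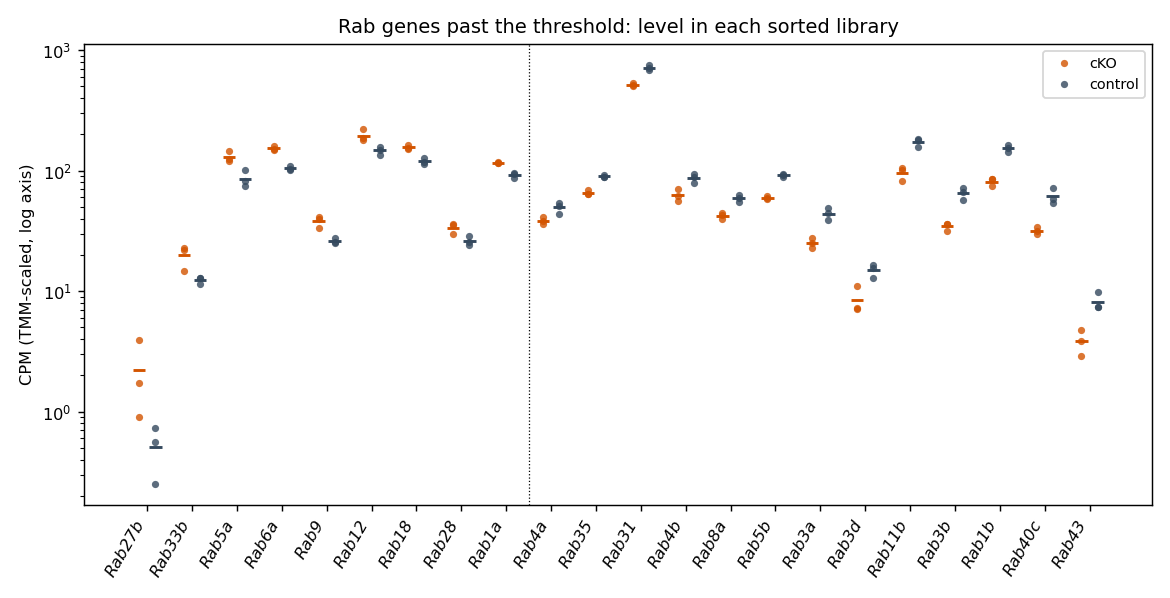
Level in each sorted library (CPM, log axis) of the 22 Rab genes past the threshold, with the 9 higher in cKO left of the dotted line and the 13 lower to its right. Each point is a library and each bar the mean of 3; the groups do not overlap for any gene shown, and Rab27b has the lowest CPM, with means of 2.198 CPM in cKO and 0.513 CPM in control libraries.

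Ratios of reads between paralogs within a library do not depend on how libraries are scaled. Over the 15 pairs with both members tested, the ratios of the groups did not overlap for 8 pairs, and in 2 of these (Rab1a and Rab1b, Rab5a and Rab5b) the members were called in opposite directions. The first share, 53.3% of pairs, is near the background: over all pairs of 13360 tested genes with no count of 0, the ratios did not overlap for 44.7%, and 7.56% were called in opposite directions, against 13.3% of the Rab pairs. An exact two-sided permutation test of 3 against 3 libraries can give no p below 0.1, and each of the 8 pairs gave p = 0.1. The ratio of Rab5a to Rab5c reads was 0.652, 0.719 and 0.668 in the cKO libraries, against 0.356, 0.386 and 0.349 in the controls, higher in every cKO library. The ratio of Rab3a to Rab3b reads was 0.798, 0.628 and 0.766 in the cKO libraries, against 0.684, 0.614 and 0.741 in the controls, and that of Rab4a to Rab4b reads was 0.587, 0.684 and 0.579 in the cKO libraries, against 0.467, 0.613 and 0.638 in the controls. Both overlapped between the groups, so in these pairs no shift between members was resolved.

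The comparison of PTBP1 IP with input asked which Rab transcripts were recovered with PTBP1 from cultured wild-type cells. Of 48 tested Rab genes, 22 were higher and 21 lower in the IP and 5 did not pass the test, and 11 were enriched, meaning higher by 2-fold or more (adjusted p under 0.05 over all 12854 genes tested). These shares (45.8% higher, 43.8% lower, 22.9% enriched) were near those of all tested genes, of which 43.0% were higher, 44.8% lower, 87.8% either and 20.7% enriched. Lower by 2-fold or more were 12 Rab genes, and 27.0% of all genes. The groups did not overlap for 43 of 48 Rab genes (89.6%), against 87.9% of all genes. The members' median log2 fold was -0.0095, and that of all genes -0.026. With scaling by library size alone, which put the median of all genes at -0.39, 18 Rab genes were higher, 26 lower and 4 enriched. Of the 11 other Rab genes, Rab17 and Rab44 had no read in any cultured library, and Rab19, Rab25, Rab26, Rab33a, Rab37, Rab38, Rab39, Rab3c and Rab9b averaged at most 0.425 CPM in either group. The 22 genes higher in the IP had a median exon length of 3633 bases and the 21 lower genes of 2357 bases. Over all tested genes the medians were 5257 bases for those higher and 3206 bases for those lower, and the part of length in the Rab differences was not tested.

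**Figure D4:**
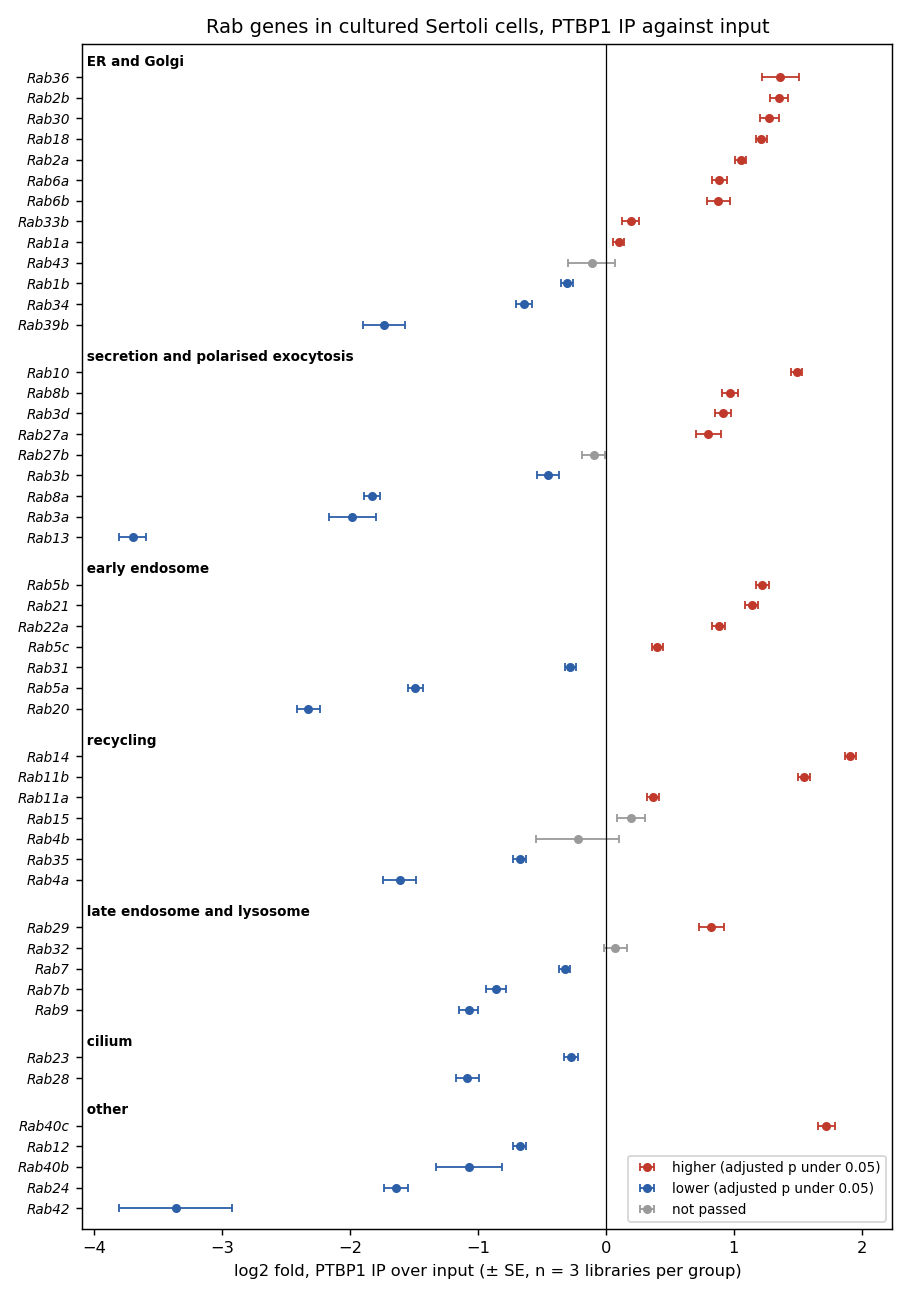
Log2 fold of PTBP1 IP over input (horizontal axis) for the 48 tested Rab genes, grouped down the page by compartment. Points are edgeR estimates, whiskers SE, n = 3 libraries per group; red marks the 22 genes higher, blue the 21 lower and grey the 5 that did not pass, from Rab14 at 1.91 to Rab13 at -3.70.

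The highest log2 folds in the IP were those of Rab14, Rab40c, Rab11b and Rab10. Rab14 had 759.8, 752 and 747 CPM in the immunoprecipitates, against 201, 194 and 205 CPM in the inputs. The log2 fold was 1.91 ± 0.042 (SE; adjusted p = 2.21e-18), the highest of the family, and the libraries of each group lay close together. Rab11b had 322, 313 and 306 CPM in the immunoprecipitates, against 108, 106 and 107 CPM in the inputs, a log2 fold of 1.55 ± 0.044 (SE; adjusted p = 6.12e-17). Its paralog Rab11a averaged 178 ± 6.17 CPM in immunoprecipitated and 138 ± 4.52 CPM in input libraries and had a log2 fold of 0.37 ± 0.046 (SE; adjusted p = 3.84e-07). That smaller rise of Rab11a did not pass with scaling by library size alone (log2 fold 0.0047). Rab10 had 740.3, 706 and 680.1 CPM in the immunoprecipitates, against 254, 242 and 260.2 CPM in the inputs, a log2 fold of 1.49 ± 0.045 (SE; adjusted p = 1.88e-16). The groups were again far apart.

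Of 13 tested ER and Golgi Rabs, 9 were higher in the IP, 5 of them enriched, and 3 were lower. Of all tested genes 43.0% were higher, 20.7% enriched and 44.8% lower, and the counts per compartment are small and carry no test. Among the 9, Rab1a and Rab33b turned lower with scaling by library size alone. Rab18 had 403, 381 and 388 CPM in the immunoprecipitates, against 164, 164 and 175 CPM in the inputs, a log2 fold of 1.22 ± 0.044 (SE; adjusted p = 2.71e-15). Rab2a, a Rab of the Golgi and of transport between Golgi and ER, had 393, 377 and 385 CPM in the immunoprecipitates, against 182, 184 and 190.4 CPM in the inputs, a log2 fold of 1.05 ± 0.042 (SE; adjusted p = 1.04e-14). The groups of both genes were far apart. The other 3 enriched genes were Rab2b, Rab30 and Rab36, with log2 folds of 1.35, 1.28 and 1.36. Rab6b was higher at 0.88, while Rab34 and the scarce Rab39b were lower at -0.64 and -1.73, and Rab43 did not pass (-0.11).

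The Rab5 paralogs were again apart, in the opposite sense to the cKO. Rab5b had 154, 147 and 147 CPM in the immunoprecipitates, against 66.7, 62.5 and 63 CPM in the inputs, a log2 fold of 1.22 ± 0.049 (SE; adjusted p = 1.12e-14). Rab5a had 29.4, 30.8 and 31.5 CPM in the immunoprecipitates, against 85.1, 82.5 and 89.8 CPM in the inputs, a log2 fold of -1.49 ± 0.057 (SE; adjusted p = 5.15e-15). Every IP library lay above every input for Rab5b and below for Rab5a. Rab5c averaged 179 ± 5.0 CPM in immunoprecipitated and 136 ± 2.74 CPM in input libraries, with a log2 fold of 0.40 ± 0.044 (SE; adjusted p = 7.01e-08), and did not pass with scaling by library size alone (log2 fold 0.036). The ratio of Rab5a to Rab5b reads was 0.191, 0.209 and 0.213 in the immunoprecipitates, against 1.28, 1.32 and 1.42 in the inputs. Rab21 was enriched (log2 fold 1.14) and Rab22a higher (0.88).

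The lowest log2 fold of the family was that of Rab13, which regulates tight junction assembly. Rab13 had 2.56, 2.24 and 2.19 CPM in the immunoprecipitates, against 32.9, 29.1 and 29.5 CPM in the inputs. The log2 fold was -3.70 ± 0.10 (SE; adjusted p = 5.15e-17). Rab20 had 5.4, 5.96 and 6.83 CPM in the immunoprecipitates, against 30.5, 31.9 and 28.7 CPM in the inputs, a log2 fold of -2.33 ± 0.091 (SE; adjusted p = 8.59e-15). Rab8a had 19.3, 19.4 and 18.2 CPM in the immunoprecipitates, against 72.2, 64.9 and 65.4 CPM in the inputs, a log2 fold of -1.83 ± 0.064 (SE; adjusted p = 1.46e-15). Its paralog Rab8b went the other way, averaging 78.5 ± 5.95 CPM in immunoprecipitated and 40.1 ± 1.63 CPM in input libraries (log2 fold 0.97 ± 0.063 SE, adjusted p = 2.02e-11). The ratio of Rab8a to Rab8b reads was 0.227, 0.251 and 0.249 in the immunoprecipitates, against 1.72, 1.65 and 1.68 in the inputs, without overlap. Rab24, an atypical Rab linked to autophagy, had 7.21, 7.87 and 7.97 CPM in the immunoprecipitates, against 22.5, 26.8 and 22.4 CPM in the inputs, a log2 fold of -1.64 ± 0.093 (SE; adjusted p = 2.53e-12). Rab9 had 18.4, 18.4 and 20.9 CPM in the immunoprecipitates, against 41.4, 37.1 and 42.8 CPM in the inputs, a log2 fold of -1.07 ± 0.074 (SE; adjusted p = 5.32e-11). In all of these the IP libraries lay below the inputs without overlap.

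Of 5 late endosome and lysosome Rabs tested, 3 were lower and 1 higher in the IP, where 44.8% of all tested genes were lower and 43.0% higher. These counts are small and carry no test. Besides Rab9, Rab7 and Rab7b were lower, with log2 folds of -0.32 and -0.86, while Rab29 was higher at 0.83 and Rab32 did not pass (0.075). Rab23 was lower at -0.27 and Rab27a higher at 0.80. The scarce genes Rab42 and Rab40b, with input means of 1.03 and 1.47 CPM, were lower at -3.36 and -1.07. Rab15, Rab27b and Rab4b did not pass, with log2 folds of 0.20, -0.094 and -0.22. Rab15 passed as higher without the first input library (adjusted p = 0.0139). With scaling by library size alone Rab27b passed as lower (log2 fold -0.46, adjusted p = 0.000157). So did Rab32 (-0.29, adjusted p = 0.00692) and Rab43 (-0.48, adjusted p = 0.0214). Over 15 paralog pairs with both members tested, the IP and input ratios did not overlap for 14, and in 7 the members were called in opposite directions. Both shares, 93.3% and 46.7% of the Rab pairs, were near those of all pairs of 12820 tested genes with no count of 0, at 85.8% and 38.5%. Each of the 14 gave p = 0.1 in the exact two-sided permutation test, the smallest that 3 against 3 libraries allow. Groups without overlap always give that value, so it adds nothing to the lack of overlap. The exception was the ratio of Rab6a to Rab6b reads, at 28.3, 28.1 and 24.7 in the immunoprecipitates, against 26.6, 25.3 and 28.7 in the inputs.

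**Figure D5:**
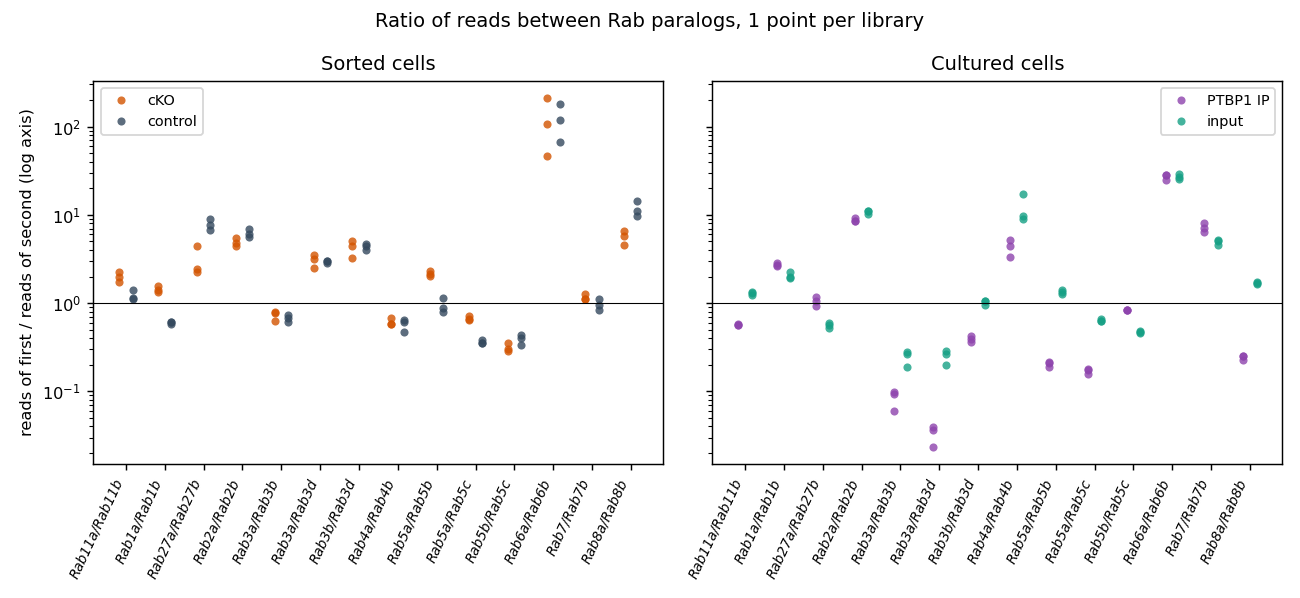
Ratio of reads of the first to the second named paralog in each library (log axis), in sorted cells (left panel, cKO left of control) and cultured cells (right panel, IP left of input). Each point is a library. The ratio of Rab1a to Rab1b lies higher in the 3 cKO libraries than in the 3 controls, and that of Rab5a to Rab5b lower in the 3 IP libraries than in the 3 inputs. Reads are not scaled to gene length, so a ratio of 1 does not mark equal levels.

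Set side by side, the comparisons of cKO with control and of IP with input share no library. Of the Rab genes called in both, 4 were higher in cKO and higher in the IP, 4 lower in cKO and higher in the IP, 4 higher in cKO and lower in the IP, and 7 lower in both. As shares of the 45 Rab genes tested in both, the first 3 classes held 8.89% each and the last 15.6%. Of all 11142 genes tested in both, 6.34% were higher in cKO and higher in the IP, 11.6% lower in cKO and higher in the IP, 10.04% higher in cKO and lower in the IP, and 10.6% lower in both, so the Rab shares were near the background. Over the 45 Rab genes tested in both, the log2 folds had a Pearson correlation of 0.11 and a Spearman correlation of 0.12. Over the 11142 genes tested in both these were -0.054 and -0.073, given as a description, since genes are not independent replicates.

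The Rab genes lower in cKO and higher in the IP were Rab11b, Rab5b, Rab40c and Rab3d, and the first 3 of them were enriched. Rab40c had 135, 147 and 155 CPM in the immunoprecipitates, against 46.1, 46.9 and 39.2 CPM in the inputs (log2 fold 1.72 ± 0.068 SE, adjusted p = 7.63e-14), beside a log2 fold of -0.96 in cKO over control. Rab3d had 48.9, 50.6 and 52.1 CPM in the immunoprecipitates, against 25.9, 27.3 and 27 CPM in the inputs (log2 fold 0.92 ± 0.060 SE, adjusted p = 2.45e-11), beside -0.82 in cKO over control. In both genes all IP libraries stood above the inputs. For Rab11b and Rab5b the log2 folds of IP over input were 1.55 and 1.22, beside -0.84 and -0.62 in cKO over control.

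Higher in both were Rab6a, Rab18, Rab33b and Rab1a, all ER or Golgi Rabs, with Rab33b and Rab1a turning lower in the IP when libraries were scaled by size alone. Rab6a had 386, 358 and 329.9 CPM in the immunoprecipitates, against 199, 179 and 202 CPM in the inputs (log2 fold 0.89 ± 0.059 SE, adjusted p = 3.77e-10). Rab33b had 43.8, 38 and 40.4 CPM in the immunoprecipitates, against 34.7, 34 and 38 CPM in the inputs (log2 fold 0.20 ± 0.067 SE, adjusted p = 0.0114). This small rise did not pass without the second input library (adjusted p = 0.0605), and with scaling by library size alone it was -0.17. Rab1a had 339, 323 and 322 CPM in the immunoprecipitates, against 305, 292 and 321 CPM in the inputs (log2 fold 0.10 ± 0.045 SE, adjusted p = 0.0453). The groups were separated by a small gap, and the call was lost without the first IP library (adjusted p = 0.0927), the first input (0.102) or the second (0.207). With scaling by library size alone it was -0.27. Its paralog Rab1b was lower in the IP, with 118, 121 and 123 CPM in the immunoprecipitates, against 153, 150.4 and 143 CPM in the inputs (log2 fold -0.30 ± 0.046 SE, adjusted p = 4.92e-06).

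Higher in cKO and lower in the IP were Rab5a, Rab9, Rab12 and Rab28. Rab12 had 63, 60.7 and 62.9 CPM in the immunoprecipitates, against 99.5, 93.9 and 104 CPM in the inputs (log2 fold -0.67 ± 0.052 SE, adjusted p = 3.67e-10). Rab28 had 13.6, 12.1 and 14 CPM in the immunoprecipitates, against 24.6, 28 and 31.3 CPM in the inputs (log2 fold -1.08 ± 0.090 SE, adjusted p = 1.05e-09). The IP libraries lay below the inputs for both genes. Lower in both were Rab1b, Rab3a, Rab3b, Rab31, Rab35, Rab8a and Rab4a. Rab3a had 1.77, 1.2 and 2.07 CPM in the immunoprecipitates, against 6.87, 5.44 and 7.67 CPM in the inputs (log2 fold -1.98 ± 0.18 SE, adjusted p = 5.72e-09). Rab3b had 17.9, 19.99 and 22.3 CPM in the immunoprecipitates, against 24.4, 28.9 and 28.7 CPM in the inputs (log2 fold -0.45 ± 0.087 SE, adjusted p = 0.000101). Thus Rab3a and Rab3b were lower in the IP and Rab3d higher. Rab31 had 779, 750.2 and 787 CPM in the immunoprecipitates, against 926, 927 and 953 CPM in the inputs (log2 fold -0.28 ± 0.040 SE, adjusted p = 2.5e-06). Rab35 had 52.7, 51.5 and 48.7 CPM in the immunoprecipitates, against 81.9, 83.5 and 78.9 CPM in the inputs (log2 fold -0.67 ± 0.053 SE, adjusted p = 4.59e-10). Rab4a had 2.88, 2.57 and 3.12 CPM in the immunoprecipitates, against 9.46, 9.05 and 7.78 CPM in the inputs (log2 fold -1.61 ± 0.13 SE, adjusted p = 6.75e-10). In none of these genes did the IP and input libraries overlap.

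The proteins that run the Rab cycle were followed through 4 lists with 156 genes, all found in both tables. Among GEFs, which activate Rabs, 9 of 49 tested were higher and 19 lower in cKO cells (median log2 fold -0.024). Among TBC-domain and other GAPs, which switch Rabs off, 5 of 39 were higher and 15 lower (median -0.14). Effectors gave 16 higher and 8 lower of 49 (median -0.11), and the genes of prenylation, escort and GDP dissociation 2 higher and 2 lower of 7 (median 0.025). Of all tested genes 17.6% were higher and 21.4% lower, and their median was 0.0021. The splits moved with scaling by library size alone, which put the median of all genes at 0.17: it gave 12 higher and 13 lower GEFs, 8 higher and 10 lower GAPs, 18 higher and 6 lower effectors, and 3 higher and 1 lower gene of the prenylation list. The effector split depended on single libraries. It was 9 higher and 10 lower without the first cKO library, 8 and 8 without the second and 16 and 11 without the third. Without the first control library it was 12 and 6, without the second 9 and 6 and without the third 11 and 10. Without 1 library the higher GAPs numbered 3 to 6 and the lower ones 11 to 16, the lowest count of higher ones being without the second control library. The prenylation list had 1 lower gene without the first or the second library of either group.

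Of the GEF list, the TRAPP subunit Trappc9 averaged 82.6 ± 6.3 CPM in cKO and 162 ± 21.3 CPM in control libraries (log2 fold -0.97 ± 0.12, adjusted p = 0.000181). Rin3, a GEF of Rab5, and Rab3il1, a GEF of Rab8, had log2 folds of -1.03 and -0.97, while Dennd6b, of the DENN family, had 1.01. Of the GAP list, Tbc1d9b averaged 104 ± 2.91 CPM in cKO and 189 ± 11 CPM in control libraries (log2 fold -0.87 ± 0.10, adjusted p = 0.000131). Tbc1d22a, Tbc1d17 and Tbc1d13, further TBC-domain proteins, had log2 folds of -0.85, -0.82 and -0.92. All 4 of these fell. Of the effectors, Rab11fip5, which binds Rab11, averaged 60.6 ± 5.06 CPM in cKO and 119 ± 2.23 CPM in control libraries (log2 fold -0.97 ± 0.10, adjusted p = 9.23e-05), and Micall2, which binds Rab13 and Rab8, had a log2 fold of -0.91. Eea1, the tether that Rab5 recruits to early endosomes, rose, averaging 60.3 ± 4.2 CPM in cKO and 35.1 ± 1.29 CPM in control libraries (log2 fold 0.78 ± 0.11, adjusted p = 0.000339), as did the golgin Gcc2 (log2 fold 1.08). In the prenylation list, the beta subunit of the Rab prenylating enzyme, Rabggtb, rose (log2 fold 0.72) and its alpha subunit Rabggta fell (-0.44). The call of Rabggta was lost in 5 of the 12 alternative settings, such as with scaling by library size alone (adjusted p = 0.121). The escort protein Chm rose (0.94) and the prenylated Rab acceptor Rabac1 fell (-0.93).

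In the IP, GEFs and GAPs were more often higher than lower than input: 29 higher and 15 lower of 50 GEFs (median log2 fold 0.42), and 24 higher and 11 lower of 38 GAPs (median 0.50). Effectors were divided, with 23 higher and 22 lower of 52 (median -0.011), and the prenylation list had 5 higher and 3 lower of 8 (median 0.74). Of all genes 43.0% were higher and 44.8% lower, with a median of -0.026. With scaling by library size alone the splits were 23 higher and 21 lower GEFs, 19 higher and 14 lower GAPs, and 17 higher and 29 lower effectors, so the balance of the effectors turned round, while the prenylation list kept its 5 and 3. Chm averaged 112 ± 2.6 CPM in immunoprecipitated and 35.5 ± 2.03 CPM in input libraries (log2 fold 1.66 ± 0.056, adjusted p = 7.82e-16). Rabif, a Rab chaperone, had a log2 fold of 1.39, and Rabggtb of -1.57. The Rab5 effector Appl1 averaged 389.6 ± 10.2 CPM in immunoprecipitated and 132 ± 6.42 CPM in input libraries (log2 fold 1.56 ± 0.046, adjusted p = 1.34e-16), and Rab11fip5 had a log2 fold of 1.42. Bicd2, a dynein adaptor of Rab6, and Rabep1, an effector of Rab5 and Rab4, were lower (-1.56 and -1.41). The GAPs Tbc1d14, Tbc1d4, Tbc1d19 and Tbc1d20 had log2 folds of 1.83, 1.84, 1.95 and 1.24, all higher. Tbc1d4 restrains Rab10 in insulin-responsive cells, and Tbc1d20 acts on Rab1. Among GEFs, Rgp1, of the GEF of Rab6, and Dennd4c, a GEF of Rab10, were higher (1.47 and 1.45), and Ccz1, of the GEF of Rab7, and the TRAPP subunit Trappc6b were lower (-2.74 and -2.96).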

How the data were processed

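RNA was sequenced from 4 groups of 3 mouse samples. The authors deposited 1 table of the sorted and 1 of the cultured libraries, and the values used are counts: whole numbers of reads per gene with no normalization, as deposited. The submitters' processing notes list STAR, Bowtie2 2.3.5.1, HTSeq, cutadapt, bcl2fastq 2.20 and DESeq2, with build mm10, and do not say which table each served. Per the labels' protocols, sorted libraries were made from poly(A) RNA with a directional kit, and cultured ones from total RNA with a later version of it. Positions and exon lengths are those of the deposited sorted table, positions given counted from 1, and 84 further per-library columns of it were not used. The second sheet of the workbook holds the same genes, counts and lengths in another order. Sorted columns name the group but no replicate, so these libraries are numbered in table order.

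The 6 libraries of each comparison were fitted alone with edgeR 4.0.16 in R 4.3.3 (filterByExpr, TMM, robust quasi-likelihood fit, two-sided test, Benjamini-Hochberg adjustment over all genes tested, threshold 0.05). CPM is the count divided by the TMM-scaled library size. Standard errors of log2 folds were derived from the F statistic (fold over the root of F). Enriched means past the threshold with a log2 fold of at least 1. Each kind of fit was also run on simulated counts, and the outcome is not reported here. No 2 libraries of a group were duplicates, the smallest chi-square per degree of freedom between them being 2.13. Alternatives were DESeq2 1.42.0, its size factors, library size alone, no filter on low counts, no mitochondrial genes, each library left out, the third sorted library of both groups left out, and the library number as a block. Applying them to the 4 lists was chosen after seeing the data. The members, lists, paralog pairs and tests were chosen with earlier results of these data known, and compartments were assigned from general knowledge. Every Rab gene is accounted for. Values in every library were due to up to 8 genes per direction in cKO and 6 in the IP with the smallest p, and to genes called in both; a few others are shown where a paralog or a near-threshold value made them useful, chosen after their values were seen. Of each list, up to 4 genes with the smallest p past the threshold are named, except 1 that is not reported here. Promoter sequences come from RefSeq.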

Additional observations from a re-analysis of the deposited data

How the results depend on the processing

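Of the 22 Rab genes called in cKO over control, 15 were called under all 12 alternatives, and the 7 that lost the call under at least 1 of them (Rab12, Rab1a, Rab27b, Rab28, Rab33b, Rab4a and Rab4b) kept their direction. Of the 43 called in IP over input, 39 were called under all 12. Leaving out each sorted library in turn gave 6 to 8 Rab genes higher and 12 to 15 lower in cKO, and leaving out the third library of both groups gave 9 and 15. Leaving out each cultured library gave 20 to 22 higher, 21 to 22 lower and 11 to 12 enriched in the IP. With scaling by library size alone 4 Rab genes were enriched in place of 11. The log2 folds of cKO over control that changed sign belonged to genes that did not pass. With scaling by library size alone these were Rab11a at 0.042, Rab13 at 0.050, Rab34 at 0.058 and Rab36 at 0.046. Without the third library of both groups they were Rab19 at 0.054, Rab32 at -0.49, Rab6b at -0.18, Rab7 at -0.0063 and Rab9b at -0.049. Over the fits that left out 1 sorted library, the log2 fold ran from -0.28 to 0.12 for Rab13, -0.23 to 0.26 for Rab9b, -0.31 to 0.86 for Rab32, -0.014 to 0.11 for Rab7, -0.019 to 0.11 for Rab21 and -0.57 to 0.091 for Rab19. In IP over input, scaling by library size alone gave Rab15 -0.17, Rab1a -0.27, Rab32 -0.29 and Rab33b -0.17. The cause of these changes was not tested. The library number of the cultured samples as a block gave 22 higher, 21 lower and 11 enriched, as without the block. Same-numbered IP and input libraries deviated from their group means with correlations of 0.116, 0.040 and 0.175 for numbers 1, 2 and 3. The second IP correlated best with the first input (0.061), so the library numbers are not taken to pair the libraries. These 2 libraries share the first number of their labels, which may mark a culture. IP and input libraries that differ in that first number had correlations from -0.154 to -0.032, and a fit with it as a block was not made. No paired analysis was possible because the columns of the sorted table carry no replicate numbers, for cKO over control. Depth limits what can be said of the scarce genes, such as Rab6b, Rab19, Rab32 and Rab42 in sorted cells.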

Other observations

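Levels of several Rab genes differed widely between sorted control cells and cultured input. The tables come from different kits, RNA fractions and annotations and were scaled separately, so the values stand side by side with no test. Cell type markers differed too. Myoid markers summed to 58.8 to 63.4 CPM in sorted control and 2028 to 2065 CPM in cultured input libraries. Sertoli markers summed to 4337 to 4628 CPM in sorted control and 5876 to 5960 CPM in cultured input libraries. Of these, Amh averaged 268 CPM in sorted control and 17.05 CPM in cultured input libraries. The part of other cell types in the Rab gaps was not tested. Of the recycling genes, Rab4b had 87.2 ± 7.09 CPM in sorted control and 0.786 ± 0.231 CPM in cultured input libraries (n = 3 each), and Rab4a had 49.6 ± 5.32 CPM in sorted control and 8.76 ± 0.873 CPM in cultured input libraries. The annotated gene Gm21983 spans Rab4b and had no read in any sorted library, and its part in the low cultured count was not tested. Gm20388 spans Rab4a, and its part was not tested either. Rab36 had 34.8 ± 2.58 CPM in sorted control and 2.66 ± 0.159 CPM in cultured input libraries, and Rab3a had 44 ± 4.98 CPM in sorted control and 6.66 ± 1.13 CPM in cultured input libraries. In the other direction, Rab15 had 0.0265 ± 0.0459 CPM in sorted control and 8.49 ± 1.31 CPM in cultured input libraries, and Rab27b had 0.513 ± 0.245 CPM in sorted control and 12.5 ± 0.517 CPM in cultured input libraries. Rab32, a Rab of lysosome-related organelles, had 0.875 ± 0.621 CPM in sorted control and 16 ± 1.51 CPM in cultured input libraries, and Rab8b had 5.24 ± 1.2 CPM in sorted control and 40.1 ± 1.63 CPM in cultured input libraries. For Rab8a and Rab8b the ratio of reads was 6.64, 4.6 and 5.7 in the cKO libraries, against 14.3, 10.9 and 9.64 in the controls, and 0.227, 0.251 and 0.249 in the immunoprecipitates, against 1.72, 1.65 and 1.68 in the inputs.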
